A study of Mus musculus with 10 samples.

Results

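The tumor necrosis factor (TNF) superfamily ligands and their receptors were followed across group 2 innate lymphoid cells of 5 tissues as open chromatin regions (OCRs). A region was taken as a member when the nearest RefSeq transcription start site (TSS) belonged to a gene with a symbol starting with *Tnfrsf* (receptors) or *Tnfsf* (ligands), which gave 130 of the 50039 regions of the count table. These members lay at 28 genes, with 80 regions at 18 receptor genes and 50 regions at 10 ligand genes, and each of the 130 had at least 1 count and was tested. No region had *Tnfrsf18* (GITR), *Tnfrsf11b* or *Tnfsf13* as its nearest gene. Assignment by distance says nothing of which gene a region controls.

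The regions came from ATAC-seq, in which the Tn5 transposase cuts open DNA and leaves sequencing adapters there, of untreated male C57BL/6 wild-type mice aged 6 weeks. These cells (ILC2s) were taken from lung, pancreas, bone marrow (BM), small intestine (SI), and large intestine (LI), with 2 libraries of 50000 sorted cells for each. A pool held cells of 16 mice for lung, pancreas, and BM and of 10 mice for the intestinal tissues, so p-values measure the spread between pools and not between mice. BM ILC2s were sorted as lineage-negative ST2+CD25+ cells, LI, lung, and pancreas ILC2s as lineage-negative CD45+CD127+ST2+CD25+ cells, and SI ILC2s as lineage-negative CD45+CD127+KLRG1+ cells with an intermediate level of Thy1. BM was flushed from the bone, the other tissues were digested with enzymes, and BM was sorted on its own instrument, so that preparation, gate, sorter, and tissue cannot be told apart. In sorted pools, fewer cells with an open region and a less open region in each cell cannot be told apart either.

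TNF superfamily ligands are mostly trimeric surface proteins that can be shed. Many of their receptors carry a death domain or recruit TRAF adaptors that lead to NF-kB. In lymphocytes the costimulatory pairs are the best known members, including OX40 (*Tnfrsf4*) with OX40L (*Tnfsf4*), 4-1BB (*Tnfrsf9*) with its ligand (*Tnfsf9*), CD30 (*Tnfrsf8*) with CD30L (*Tnfsf8*), and GITR with its ligand (*Tnfsf18*). ILC2s are known to respond to TL1A (*Tnfsf15*) through DR3 (*Tnfrsf25*) and to GITR ligand, and they can carry OX40L and RANKL (*Tnfsf11*) for contact with T cells.

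Total counts ranged from 10282987 (pancreas replicate 2) to 32797872 (lung replicate 2) per library, and counts within the family from 17903 to 62893 in the same libraries. The family took 0.123% and 0.135% of the counts in BM and 0.144% to 0.192% in the other 8 libraries. Promoters of 7 of the 8 ILC2 marker genes held a region, with summed values from 251 to 373 CPM in every library, where CPM is the read count of a region scaled to the TMM-normalized total of its library. Single genes within that sum differed. The *Klrg1* promoter held 11.2 and 11.5 CPM in BM and 35.2 to 75.4 elsewhere. At *Il1rl1*, which encodes ST2, it was 4.53 and 3.55 in SI and 10.4 to 41.9 elsewhere. The promoters of *Gata3*, *Rora*, and *Id2* were instead highest in BM. The family's replicates differed by a median of 0.22 (lung) to 0.36 (SI) on the log2 scale, and the SI libraries were the least alike by both this measure and the spread of their counts.

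The sequences below are the central 300 bases of the most variable region of 6 genes, and they are shown because these regions carry the main differences between tissues described next. The most variable region of a gene is that with the smallest p in edgeR's test over the 5 tissues, which need not have the widest difference. Capitals mark matches to 5 consensus motifs searched on both strands, which were AGATAA for the GATA factors, TGANTCA for AP-1, TGTGGT for RUNX, AGGAAGT for ETS, and the NF-kB consensus. The bases were read from the RefSeq assembly GRCm38.p6, which matches mm10.

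Tnfsf8, -78311 bp from the TSS, chr4:63939446-63939745, plus strand: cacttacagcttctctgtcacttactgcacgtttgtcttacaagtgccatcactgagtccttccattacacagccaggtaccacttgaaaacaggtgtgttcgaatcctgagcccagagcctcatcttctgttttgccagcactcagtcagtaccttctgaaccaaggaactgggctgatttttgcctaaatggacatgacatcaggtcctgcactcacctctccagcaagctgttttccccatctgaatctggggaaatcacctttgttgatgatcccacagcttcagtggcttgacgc

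Tnfsf18, 141211 bp from the TSS, chr1:161635719-161636018, plus strand: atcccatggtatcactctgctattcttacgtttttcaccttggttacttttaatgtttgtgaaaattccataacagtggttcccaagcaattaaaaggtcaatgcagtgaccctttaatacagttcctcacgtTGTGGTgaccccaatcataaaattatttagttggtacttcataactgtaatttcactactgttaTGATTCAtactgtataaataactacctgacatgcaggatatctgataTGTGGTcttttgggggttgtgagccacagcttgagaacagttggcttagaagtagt

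Tnfsf4, -19218 bp from the TSS, chr1:161376071-161376370, plus strand: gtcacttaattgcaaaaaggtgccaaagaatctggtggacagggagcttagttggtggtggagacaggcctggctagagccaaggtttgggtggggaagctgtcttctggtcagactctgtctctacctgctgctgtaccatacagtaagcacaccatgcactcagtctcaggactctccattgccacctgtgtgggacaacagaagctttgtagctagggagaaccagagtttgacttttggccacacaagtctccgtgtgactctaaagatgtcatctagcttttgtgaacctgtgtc

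Tnfrsf11a, 25097 bp from the TSS, chr1:105805671-105805970, plus strand: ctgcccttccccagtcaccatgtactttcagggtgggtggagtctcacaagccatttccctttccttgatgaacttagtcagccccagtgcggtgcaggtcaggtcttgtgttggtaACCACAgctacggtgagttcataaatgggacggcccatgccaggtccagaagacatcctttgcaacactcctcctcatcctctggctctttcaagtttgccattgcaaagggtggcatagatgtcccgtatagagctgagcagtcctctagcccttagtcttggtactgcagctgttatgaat

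Tnfrsf9, -4682 bp from the TSS, chr4:150915324-150915623, plus strand: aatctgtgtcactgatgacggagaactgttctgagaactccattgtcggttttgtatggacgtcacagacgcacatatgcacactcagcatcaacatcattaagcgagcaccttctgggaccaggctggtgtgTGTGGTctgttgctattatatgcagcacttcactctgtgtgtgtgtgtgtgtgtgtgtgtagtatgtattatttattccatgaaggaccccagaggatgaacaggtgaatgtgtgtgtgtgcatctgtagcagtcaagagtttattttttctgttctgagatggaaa

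Tnfrsf10b, 7335 bp from the TSS, chr14:69774658-69774957, plus strand: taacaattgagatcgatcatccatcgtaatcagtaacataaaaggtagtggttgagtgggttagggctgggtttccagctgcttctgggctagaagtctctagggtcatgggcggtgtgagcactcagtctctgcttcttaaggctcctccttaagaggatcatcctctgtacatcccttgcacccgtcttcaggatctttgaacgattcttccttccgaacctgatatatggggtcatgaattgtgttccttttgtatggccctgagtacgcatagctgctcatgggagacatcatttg

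None of the 6 windows held a match to the GATA, ETS, or NF-kB consensus, the *Tnfsf18* window held 2 RUNX matches and 1 AP-1 match, and the *Tnfrsf11a* and *Tnfrsf9* windows held 1 RUNX match each. Over all 130 members, 27.7% of the central windows held an AP-1 match, compared with 18.3% of the windows of all regions and 21.2% of those outside promoters. For RUNX the family share of 33.8% was close to the 33.03% outside promoters (29.1% of all), and for GATA the share of 17.7% was below the 20.0% outside promoters (17.2% of all). The shares were 19.2% for ETS (16.3% outside promoters, 14.8% of all) and 9.23% for NF-kB (7.94% and 7.60%). The 25 members that were lower in BM, described next, held an AP-1 match in 28.0% of their windows, RUNX in 40.0%, GATA in 12.0%, ETS in 16.0%, and NF-kB in 12.0%, and the other 105 members in 27.6%, 32.4%, 19.0%, 20.0%, and 8.57%, respectively. A match describes letters in a window and is not a binding site.

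The first question was whether the family's accessibility differed among the 5 tissues. By edgeR's quasi-likelihood test over the 5 tissues, 72 of 130 members varied at a Benjamini-Hochberg adjusted p under 0.05, and 44.2% of all 49981 regions tested did. The share was similar for receptors (43 of 80) and ligands (29 of 50). The median span between the highest and the lowest tissue was 1.10 for receptors, 1.53 for ligands, and 0.92 for all regions on the log2 scale. For all regions outside promoters it was 1.04, close to that of receptors. Among intergenic regions alone it was 1.39 for receptors, 1.74 for ligands, and 1.07 for all. Summed per gene, 20 of 28 genes varied at the same threshold, against 40.7% of all genes.

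The pattern that recurred was low accessibility in BM. Of the 130 members, 25 were lower in BM than in each of the other 4 tissues at an unadjusted p under 0.05 in every contrast, and 6.63% of all regions were. With adjusted p-values in each contrast 17 members remained, against 4.11% of all regions. The members lower in BM comprised 16 of 50 ligand regions and 9 of 80 receptor regions, and belonged to 13 genes. Outside promoters, 22 of 111 members were lower in BM, compared with 7.82% of all such regions. Among intergenic regions the count was 13 of 34 for ligands and 3 of 27 for receptors, compared with 6.96% of all intergenic regions. Of these 13 ligand regions, 5 lay at *Tnfsf18* and 3 at *Tnfsf8*, so neighbouring regions of a few loci make up most of the count.

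**Figure D1:**
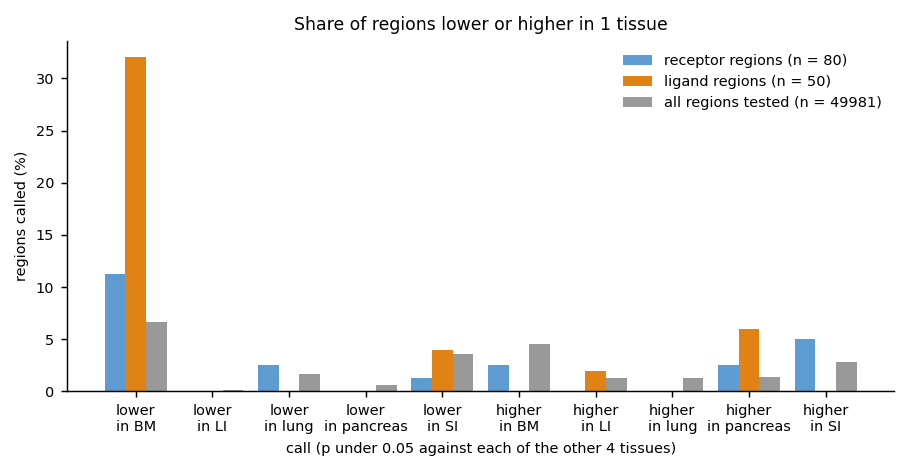
Percentage of regions called lower or higher in each tissue than in each of the other 4 (edgeR, unadjusted p under 0.05 in every contrast), for the 80 receptor regions (blue), the 50 ligand regions (orange), and all 49981 regions tested (grey). The tallest bar is ligand regions lower in BM, with 16 of 50, beside 6.63% of all regions.

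In medians, the difference of BM from the mean of the other 4 tissues was -0.17 for receptors and -0.86 for ligands, while it was 0.00 for all regions. It was -1.10 for intergenic ligand regions and -0.07 for all intergenic regions. Over the 130 members the median was -0.55. With GC content and width trends removed, that median was -0.37, beside 0.05 for all regions. BM had the lowest mean in 33 of 50 ligand regions (66.0%) and 25 of 80 receptor regions, compared with 26.2% of all regions. Summed over the 50 ligand regions, CPM was 275 and 291 in the BM libraries, 325 and 399.6 in SI, 442 and 479.7 in lung, 458 and 509 in LI, and 556 and 586 in pancreas. Both BM libraries thus lay below every other library in the ligand sum, while LI and lung overlapped each other. The receptor sum spanned 1003 to 1384 CPM, and SI replicate 1 (1077) lay between the BM libraries (1003 and 1129).

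**Figure D2:**
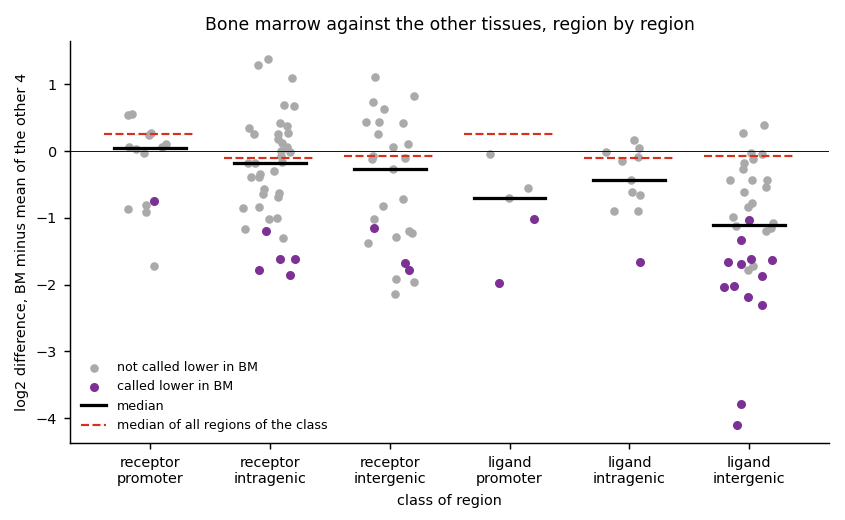
Log2 difference of BM from the mean of the other 4 tissues for each member (points), by receptor or ligand and by region class, with members called lower in BM in purple. Black bars are the medians of the members and dashed red lines the medians of all regions of the class. Intergenic ligand regions have the lowest median, -1.10.

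The promoters of 2 of the 6 T cell marker genes held a region, and their summed CPM was 9.44 and 14.7 in BM and 13.7 to 46.2 in the other libraries, of which lung replicate 2 lay within the range of BM. Most of that sum came from *Cd28*, *Cd3e* lay between 2.35 and 5.25 in all libraries, and *Cd8a* and *Trac* had no region. *Cd3d* and *Cd4* had 1 region each, outside promoters. The *Cd3d* region held 87.3 and 70.5 CPM in BM and 41.2 to 72.2 in the other libraries. At *Cd4* it was 4.21 and 8.47 in BM and 1.74 to 5.06 elsewhere. Over all regions of the 6 genes, the sum was 137 and 131 in BM, 122 and 148 in SI, and 161 to 246 in the other libraries. The part of T cells in the BM difference was not tested.

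Among the ligands of costimulatory receptors, *Tnfsf8* (CD30L) had the widest difference. The region 78311 bp upstream of its TSS (chr4:63939331-63939860, intergenic) had CPM of 1.17 and 0.782 in BM, 5.44 and 10.3 in SI, 9.59 and 13.9 in LI, 22.4 and 30.3 in lung, and 32.6 and 32.4 in pancreas. The tissues formed steps, with BM under every other library, SI and LI overlapping, and lung and pancreas at the top. BM was lower than SI, the nearest tissue, by a log2 difference of -3.02 ± 0.36 (SE) and lower than pancreas by -5.05 ± 0.37, with an adjusted p of at most 3.17e-05 in the 4 contrasts (edgeR). The neighbouring region at 74256 bp upstream had 2 counts in BM replicate 1, with CPM of 0.0979 and 0.644 in BM, 1.44 and 3.97 in SI, 3.23 and 4.26 in LI, 9.17 and 13.4 in lung, and 7.54 and 5.72 in pancreas. It was lower in BM with an adjusted p of at most 0.00214. One more upstream region, at 44996 bp, was called lower in BM at unadjusted p-values only, since SI (3.56 and 4.98) lay just above BM (1.57 and 3.45), but it rose to 19.8 and 19.7 in lung and 27.6 and 26.6 in pancreas. Its call held in 4 of 10 fits that left out a library and was lost with DESeq2 size factors, with DESeq2 on the 4 libraries of each contrast, and with GC content and width trends removed. The *Tnfsf8* promoter was also called lower in BM at unadjusted p-values, from a mean of 1.42 CPM to 2.68 to 3.36 elsewhere, and its test over the 5 tissues did not pass (adjusted p = 0.155). That promoter call held in 1 of those 10 fits. Summed over the 7 regions of *Tnfsf8*, accessibility was 11.8 ± 3.1 (SD, n = 2) in BM, 24.8 ± 4.4 in SI, 33.4 ± 9.5 in LI, 71.4 ± 10.3 in lung, and 83.0 ± 1.8 CPM in pancreas.

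*Tnfsf18* encodes the ligand of GITR, and 5 of its 8 regions, all intergenic, were lower in BM. The most variable one, 141211 bp downstream of the TSS (chr1:161635515-161636221), had CPM of 1.52 and 1.47 in BM, 3.76 and 4.86 in lung, 6.36 and 7.98 in pancreas, 6.21 and 11.4 in SI, and 10.8 and 11.6 in LI. BM lay below all other libraries, lung came next, and SI spread across the values of pancreas and LI. The log2 difference was -1.53 ± 0.34 to lung and -2.90 ± 0.35 to LI, with an adjusted p of at most 0.00459. A region 12246 bp upstream held 4.40 and 4.92 in BM, 7.32 and 9.40 in SI, 10.1 and 9.08 in lung, 15.2 and 15.0 in pancreas, with 15.0 and 16.4 in LI (adjusted p of at most 0.0181). The 3 other regions, at 14629 bp upstream and at 112965 and 132520 bp downstream, were lower in BM at unadjusted p-values, with mean CPM of 1.01 to 1.47 in BM. The sum over the 8 regions was 13.1 ± 1.7 (SD, n = 2) in BM and lay between 29.5 ± 0.8 (lung) and 55.7 ± 6.8 CPM (LI) elsewhere.

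*Tnfsf18* lies on chromosome 1 between *Tnfsf4* and *Fasl*, the gene of the death ligand FasL, which belongs to the same superfamily under another symbol. This stretch was chosen for description after its values were seen. Between the TSSs of *Tnfsf18* and *Fasl*, 293.8 kb apart, lay 26 regions, of which 6 were nearest to *Tnfsf18* and 20 to *Fasl*. Of these, 11 were lower in BM (3 nearest to *Tnfsf18* and 8 to *Fasl*), and 19 had their lowest mean in BM, beside 6.96% of all intergenic regions lower in BM and 26.2% of all regions with their lowest mean there. The 11 fell within chr1:161607372-161735226, where 11 of the 16 regions were called. The largest difference was at 134570 bp from the *Fasl* TSS on the *Tnfsf18* side, with mean CPM of 0.79 in BM, 4.79 in lung, 9.97 in SI, 10.4 in pancreas, and 11.9 in LI (adjusted p of at most 0.000403). Nearer to the *Fasl* TSS, at 26836 bp on the same side, a region was called higher in BM at unadjusted p-values (mean of 26.7 CPM against 16.6 to 18.2), so the low values in BM did not extend to the whole interval.

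**Figure D3:**
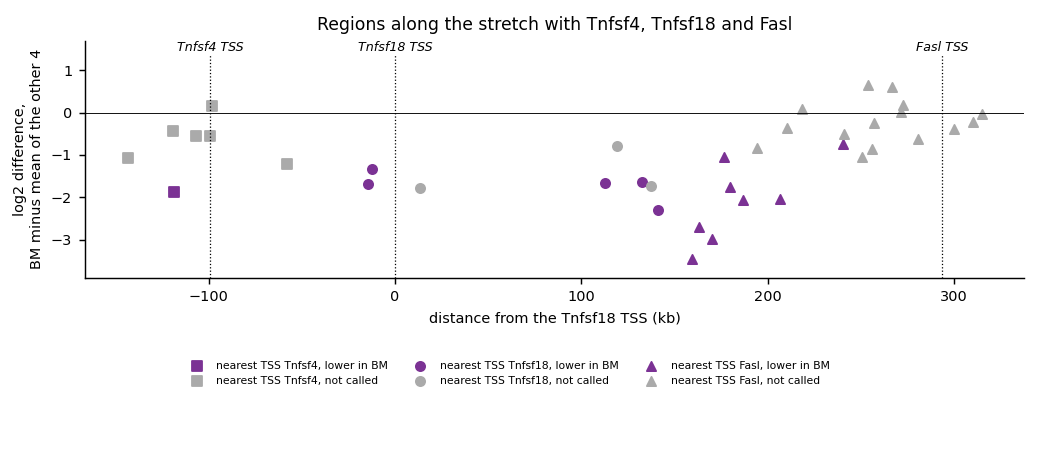
Log2 difference of BM from the mean of the other 4 tissues for each region nearest to *Tnfsf4* (squares), *Tnfsf18* (circles), or *Fasl* (triangles), by distance from the *Tnfsf18* TSS in kb. Purple marks regions called lower in BM, and 11 of them lie between the *Tnfsf18* and *Fasl* TSSs (dotted lines). Grey regions were not called lower in BM.

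At *Tnfsf4* (OX40L) the highest tissue was the pancreas. The region 19218 bp upstream (chr1:161375944-161376496) had CPM of 3.38 and 3.50 in BM, 6.499 and 6.97 in SI, 9.17 and 13.6 in lung, 14.1 and 13.1 in LI, and 21.6 and 26.3 in pancreas. It was called lower in BM and, at unadjusted p-values, higher in pancreas (adjusted p = 0.0903 to LI), with no overlap between either tissue and the rest. The BM difference was -0.97 ± 0.27 to SI and -2.80 ± 0.27 to pancreas on the log2 scale, with an adjusted p of at most 0.0128. A second region, 7809 bp upstream, was higher in pancreas (11.9 and 16.0, against 3.42 to 8.08 in the other 8 libraries), and one more, 41313 bp downstream, was the single member higher in LI (6.10 and 5.17, against 0.745 to 2.71). Each passed at unadjusted p-values only. The *Tnfsf4* promoter held mean CPM of 7.81 to 12.8, and its test over the tissues did not pass (adjusted p = 0.193).

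*Tnfsf14* (LIGHT), the ligand of HVEM, varied in 5 of its 7 regions. At 11098 bp downstream (chr17:57182815-57183352) CPM was 0.979 and 1.29 in BM, 2.02 and 2.93 in SI, 3.41 and 3.62 in lung, 7.32 and 6.91 in LI, and 7.89 and 7.01 in pancreas. The order was BM, SI, lung, and then LI with pancreas, and the last pair overlapped. BM was lower than SI by -1.13 ± 0.35 on the log2 scale, with an adjusted p of at most 0.0274 in the 4 contrasts. This call was lost without SI replicate 2 and with DESeq2 on the 4 libraries of each contrast. A region 4312 bp upstream was lower in SI at unadjusted p-values (8.38 and 12.5 in SI, 13.4 and 17.5 in BM, 32.0 and 31.9 in pancreas), and the *Tnfsf14* promoter varied from a mean of 23.2 CPM in BM to 51.5 in pancreas (adjusted p = 0.000944). *Tnfsf9* (4-1BB ligand) had 2 regions and neither varied. Its first exon held 4.55 and 5.57 CPM in BM, 5.53 and 5.99 in lung, 5.49 and 7.08 in LI, 6.30 and 8.52 in pancreas, and 9.82 and 6.69 in SI, and each tissue overlapped the next in this order.

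**Figure D4:**
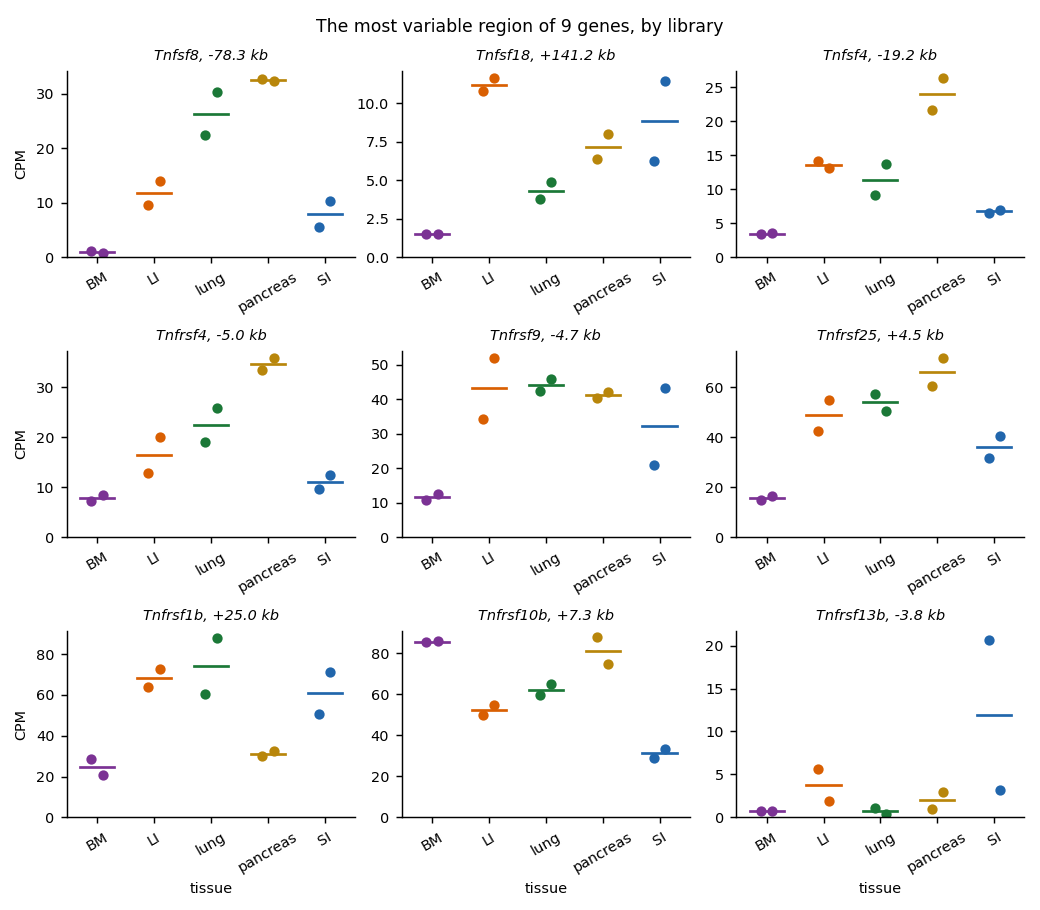
CPM of each library (points, 2 per tissue) and their mean (bars) at the most variable region (smallest p over the tissues) of 9 genes. The distance from the TSS in kb is in each title. BM is the lowest tissue at the *Tnfsf8*, *Tnfsf18*, *Tnfsf4*, *Tnfrsf4*, *Tnfrsf9*, and *Tnfrsf25* regions, and at the *Tnfrsf1b* region with pancreas close above it. SI is the lowest at the *Tnfrsf10b* region, and the 2 SI libraries lie far apart at *Tnfrsf13b*.

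The other ligands were led by *Tnfsf10*, which encodes the death ligand TRAIL. Of its 10 regions 3 were lower in BM, each with adjusted p-values under 0.05 in the 4 contrasts, and the promoter stayed between mean CPM of 20.6 and 26.1 (adjusted p = 0.514 over the tissues). In intron 2, 9696 bp downstream of the TSS, CPM was 10.5 and 8.93 in BM, 15.6 and 35.4 in SI, 27.02 and 29.4 in LI, 30.6 and 35.2 in lung, and 38.5 and 35.6 in pancreas. At 2147 bp upstream it was 2.59 and 2.85 in BM, 5.10 and 7.77 in SI, 6.18 and 8.09 in pancreas, 9.72 and 10.8 in lung, and 10.3 and 10.3 in LI. The 2 BM libraries were below all others at both regions, and SI replicate 1 was the closest to them. At 31744 bp upstream CPM was 10.5 and 7.87 in BM and 13.3 to 24.2 in the other 8 libraries, again without overlap. The largest adjusted p was 0.00208, 0.005, and 0.0185 for these 3 regions in turn. Without SI replicate 2, the call at 31744 bp upstream was lost.

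*Tnfsf11* encodes RANKL, a factor of osteoclast and lymph node development. A region 11679 bp upstream (chr14:78319438-78320007) had CPM of 1.42 and 1.29 in BM, 4.53 and 4.18 in SI, 4.08 and 5.19 in lung, 5.24 and 7.55 in pancreas, with 7.50 and 7.47 in LI. BM stood apart by at least -1.68 ± 0.33 on the log2 scale (adjusted p of at most 0.00148), SI overlapped lung, and LI overlapped pancreas. The region with the most counts at this gene, in intron 1, had means of 45.9 to 52.9 CPM in BM, LI, lung, and pancreas and was called lower in SI (30.6 and 37.0) at unadjusted p-values, although its test over the tissues did not pass (adjusted p = 0.0700). The gene of the B cell survival factor BAFF, *Tnfsf13b*, had a single region, at its promoter, with CPM of 1.27 and 0.828 in BM, 1.88 and 3.88 in pancreas, 4.18 and 3.69 in LI, 5.01 and 3.97 in SI, and 5.13 and 6.54 in lung. BM was lower than pancreas by -1.41 ± 0.44 on the log2 scale (adjusted p of at most 0.0279). This call was lost without BM replicate 2 or pancreas replicate 2. *Tnfsf15* (TL1A) had 1 region, 40654 bp downstream of its TSS, which was higher in pancreas at unadjusted p-values (6.01 and 8.30, against 0.906 to 3.52 in the other libraries). The single region of *Tnfsf12* (TWEAK), in exon 1, did not vary (adjusted p = 0.106).

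Among the costimulatory receptors, *Tnfrsf4* (OX40) had 2 regions, and its sum was the lowest in BM and the highest in pancreas. In exon 1, 159 bp downstream of the TSS (chr4:156013604-156014104), CPM was 0.783 and 1.01 in BM, 1.97 and 2.44 in SI, 2.53 and 3.04 in LI, 3.61 and 4.25 in lung, and 4.18 and 5.29 in pancreas. BM was lower than SI by -1.29 ± 0.41 on the log2 scale (adjusted p of at most 0.0284). With DESeq2 on the 4 libraries of each contrast, this call was lost. The second region lay 4957 bp upstream, within intron 4 of the neighbouring gene *Sdf4*, with CPM of 7.19 and 8.51 in BM, 9.53 and 12.4 in SI, 12.7 and 20.1 in LI, 19.1 and 25.7 in lung, and 33.3 and 35.8 in pancreas. The means of both regions thus followed the order BM, SI, LI, lung, pancreas, and the second was called higher in pancreas at unadjusted p-values and was not called in BM. The order of *Tnfsf4*, which encodes the ligand, began with BM and SI and ended with pancreas as well, and no test of this likeness was made. The sum of both *Tnfrsf4* regions was 8.75 ± 1.1 (SD, n = 2) in BM and 39.3 ± 2.5 CPM in pancreas.

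*Tnfrsf9* (4-1BB) is a costimulatory receptor induced by activation, and 3 of its 4 regions were lower in BM. The most variable one, 4682 bp upstream (chr4:150915203-150915743), had CPM of 10.7 and 12.5 in BM, 21.0 and 43.2 in SI, 34.3 and 52.0 in LI, 40.3 and 42.0 in pancreas, and 42.5 and 45.8 in lung. BM lay below every library, and the other 4 tissues overlapped. The log2 difference of BM was -1.47 ± 0.28 to SI and -1.93 ± 0.29 to lung (adjusted p of at most 0.00125). The promoter rose from a mean of 15.4 CPM in BM to between 23.4 and 27.2 elsewhere at unadjusted p-values, and this call was lost with GC content and width trends removed, with DESeq2 on the 4 libraries of each contrast, and without BM replicate 1, pancreas replicate 1, or SI replicate 2. An intronic region 12281 bp downstream was lower in BM at unadjusted p-values (0.587 and 1.33), and the region with the most counts, in intron 1 and named after its values were seen, had means of 66.7 to 111 CPM and did not pass (adjusted p = 0.0829).

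*Tnfrsf8* (CD30) differed from the genes above, with 7 of 9 regions varying and none lower in BM. Its promoter was higher in SI (14.2 and 23.4 CPM) than in LI (10.1 and 11.5), lung (10.3 and 9.58), pancreas (6.12 and 8.41), and BM (4.80 and 6.81) at unadjusted p-values. Regions 38868 and 46107 bp upstream were called lower in lung and higher in BM, respectively, also at unadjusted p-values. The sum over the 9 regions was 88.4 ± 4.8 (SD, n = 2) in SI and 44.6 ± 1.6 to 62.6 ± 3.8 CPM in the other tissues. *Tnfrsf14* (HVEM) varied at its promoter, from a mean of 12.3 CPM in pancreas to 24.3 in BM (adjusted p = 0.0217), and its sum over 3 regions did not vary (adjusted p = 0.207).

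The death and TNF receptors had 36 regions at 8 genes, 15 of which varied (41.7%, against 44.2% of all regions) and 2 of which were lower in BM (5.56%, against 6.63%). At the promoter of *Tnfrsf25* (DR3), the receptor of TL1A, means were 17.2 to 20.3 CPM and the test over the tissues did not pass (adjusted p = 0.884). At 4499 bp downstream of the TSS (chr4:152120582-152121103), outside the gene, CPM was 15.0 and 16.4 in BM, 31.7 and 40.7 in SI, 42.7 and 54.9 in LI, 57.5 and 50.4 in lung, and 60.4 and 71.8 in pancreas. BM came first, SI second, LI and lung overlapped, and pancreas was the highest. The log2 difference of BM was -1.21 ± 0.21 to SI and -2.07 ± 0.21 to pancreas, with an adjusted p of at most 0.000488.

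*Tnfrsf10b* (DR5), the receptor of TRAIL, was instead lowest in SI. In intron 3, 7335 bp downstream of the TSS (chr14:69774549-69775066), CPM was 85.5 and 85.9 in BM, 87.9 and 74.5 in pancreas, 59.5 and 64.9 in lung, 50.0 and 54.9 in LI, and 28.9 and 33.4 in SI. SI stood below all other libraries, by -0.75 ± 0.18 to LI and -1.46 ± 0.18 to BM on the log2 scale (adjusted p of at most 0.0156), and this was the single member lower in SI at adjusted p-values, against 1.76% of all regions. A region over exon 7, given in full after its values were seen, was called lower in both LI and SI than in BM, lung, and pancreas at unadjusted p-values. It held 27.8 and 35.5 CPM in BM, 25.8 and 24.6 in pancreas, 16.0 and 15.7 in lung, 5.93 and 13.0 in LI, and 7.75 and 6.90 in SI (adjusted p = 9.04e-05 over the tissues), and the call was lost without LI replicate 1 or either lung library. One more region, in intron 1 at 1052 bp downstream, was higher in pancreas (12.4 and 12.7, against 5.13 to 8.61) at unadjusted p-values, and the promoter did not vary (adjusted p = 0.229). In BM the gene sum of the ligand was the lowest of the tissues (60.8 ± 0.47 CPM, SD, n = 2) and that of the receptor the highest (134 ± 4.6), although the receptor sum overlapped that of pancreas (126 ± 11.3).

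*Tnfrsf1b* (TNFR2) had 11 regions, and its sum did not vary (adjusted p = 0.403). Within that sum, a region in intron 8, 24952 bp downstream of the TSS (chr4:145221391-145222446), had CPM of 28.7 and 21.0 in BM, 29.9 and 32.6 in pancreas, 50.5 and 71.3 in SI, 64.1 and 72.9 in LI, and 60.7 and 88.0 in lung. BM and pancreas were low and the other 3 tissues high and overlapping, with a log2 difference of 1.58 ± 0.23 between lung and BM (adjusted p = 0.000124 over the tissues). A region 21085 bp upstream, which lies over exon 13 of *Tnfrsf8*, was higher in BM at unadjusted p-values (21.3 and 18.04 CPM, against 6.26 to 15.5), a call that held in 3 of 10 fits that left out a library and was lost with library size alone. *Tnfrsf1a* (TNFR1) varied in intron 1, 3648 bp downstream of the TSS, with CPM of 20.4 and 29.9 in BM, 18.8 and 17.8 in pancreas, 20.5 and 13.8 in LI, 12.5 and 18.3 in SI, and 14.6 and 9.80 in lung. BM replicate 1 lay within the range of LI, and the call over the tissues (adjusted p = 0.0499) was lost without either BM library, either pancreas library, or lung replicate 2. The *Tnfrsf1a* promoter held means of 5.08 to 6.52 CPM (adjusted p = 0.803).

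*Tnfrsf21* (DR6) varied in each of its 4 regions, 3 of them intergenic. At 16583 bp upstream CPM was 0.881 and 0.828 in BM, 1.25 and 1.32 in lung, 3.31 and 3.65 in LI, 4.19 and 4.84 in SI, and 5.07 and 7.23 in pancreas. BM and lung were both low here, so that the region was not called lower in BM, and pancreas exceeded BM by 2.83 ± 0.40 on the log2 scale (adjusted p = 0.000111 over the tissues). The decoy receptor genes *Tnfrsf22*, *Tnfrsf23*, and *Tnfrsf26* lie side by side on chromosome 7, and 2 of their 11 regions varied. Of these, a region over exon 6 of *Tnfrsf22*, nearest to the *Tnfrsf26* TSS, was lower in BM at unadjusted p-values (4.31 and 3.31 CPM, against 4.77 to 13.4).

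The 3 receptors of BAFF and APRIL, known from B cells and plasma cells, had their calls mainly in SI. Of their 9 regions 7 varied (44.2% of all regions), 3 were higher in SI (2.80% of all regions), and 7 had their highest mean in SI, as did 11879 of the 49981 regions tested. The promoter of *Tnfrsf13c* (BAFF-R; chr15:82224149-82224671) had CPM of 12.8 and 5.12 in SI, 3.92 and 3.22 in BM, 3.84 and 2.00 in LI, 2.08 and 1.52 in lung, and 1.94 and 1.62 in pancreas. Both SI libraries exceeded all others, by 1.32 ± 0.43 to BM and 2.32 ± 0.44 to lung on the log2 scale (adjusted p of at most 0.0316), and this was the single member higher in SI at adjusted p-values, against 0.590% of all regions. In the edgeR fit on gene sums, where *Tnfrsf13c* has this 1 region, the adjusted p of SI to BM was 0.0519. *Tnfrsf13b* (TACI) had 3 promoter regions, of which only that at 15 bp upstream was called higher in SI. There CPM was 12.9 and 3.10 in SI, 3.05 and 1.65 in LI, 1.00 and 3.13 in pancreas, 0.734 and 0.552 in BM, and 0.902 and 0.276 in lung. A region 3754 bp upstream held 20.7 and 3.17 in SI and 0.442 to 5.67 elsewhere. The second SI library thus lay within the range of LI or pancreas at both of these *Tnfrsf13b* regions, which were called higher in SI at unadjusted p-values.

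None of these 3 calls held without SI replicate 1, the *Tnfrsf13b* calls were also lost without LI replicate 2 or pancreas replicate 1, and the *Tnfrsf13c* call without BM replicate 2. The same library had the highest B cell markers, with the promoters of *Cd79b* and *Ebf1* summing to 24.2 CPM in SI replicate 1, 10.5 in SI replicate 2, 11.4 and 7.60 in LI, and 4.47 to 7.07 in the other 6 libraries. The B cell markers *Cd79a*, *Pax5*, and *Ms4a1* had no region in the table. *Spi1*, the single myeloid marker with a promoter region, was also highest there (9.29, against 0.386 to 3.92 in the other 9 libraries). The part of B cells or myeloid cells in the SI values was not tested. The remaining gene of the group, *Tnfrsf17* (BCMA), had a region 28714 bp upstream that was lower in lung (4.39 and 3.04 CPM) than in LI (6.54 and 8.47), pancreas (8.01 and 8.09), BM (7.68 and 10.8), and SI (7.61 and 12.4). The log2 difference of lung to LI, the nearest tissue, was -1.03 ± 0.32 (adjusted p of at most 0.0483), and no library of another tissue overlapped lung. Without LI replicate 2 or lung replicate 2, this call was lost.

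The remaining receptors were *Tnfrsf11a*, *Tnfrsf12a*, and *Tnfrsf19*. *Tnfrsf11a* (RANK), the receptor of RANKL, had 11 regions, 2 of which were lower in BM, both in intron 1. At 25097 bp downstream of the TSS (chr1:105805544-105806096) CPM was 4.45 and 3.68 in BM, 8.52 and 10.6 in SI, 14.2 and 12.4 in lung, 20.1 and 14.1 in pancreas, with 16.6 and 18.3 in LI (adjusted p of at most 0.00235). At 23725 bp it was 3.03 and 2.35 in BM, 6.51 and 5.36 in lung, 6.98 and 7.52 in SI, 10.4 and 8.52 in pancreas, and 10.8 and 11.7 in LI (adjusted p of at most 0.00829). BM was the lowest tissue at both without overlap, while the *Tnfrsf11a* promoter did not vary (means of 11.9 to 17.5 CPM, adjusted p = 0.455). *Tnfrsf19* (TROY) varied in each of its 3 regions and was highest in LI. At 10266 bp upstream CPM was 12.9 and 13.2 in BM, 21.3 and 18.01 in SI, 22.8 and 17.2 in lung, 35.2 and 41.9 in pancreas, with 48.3 and 42.8 in LI. BM was lower than SI by -0.59 ± 0.21 on the log2 scale (adjusted p of at most 0.0495). This call was lost with GC content and width trends removed and with DESeq2 on the 4 libraries of each contrast. It was also lost without lung replicate 1 or SI replicate 1. No region of *Tnfrsf12a*, the receptor of TWEAK, varied.

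**Figure D5:**
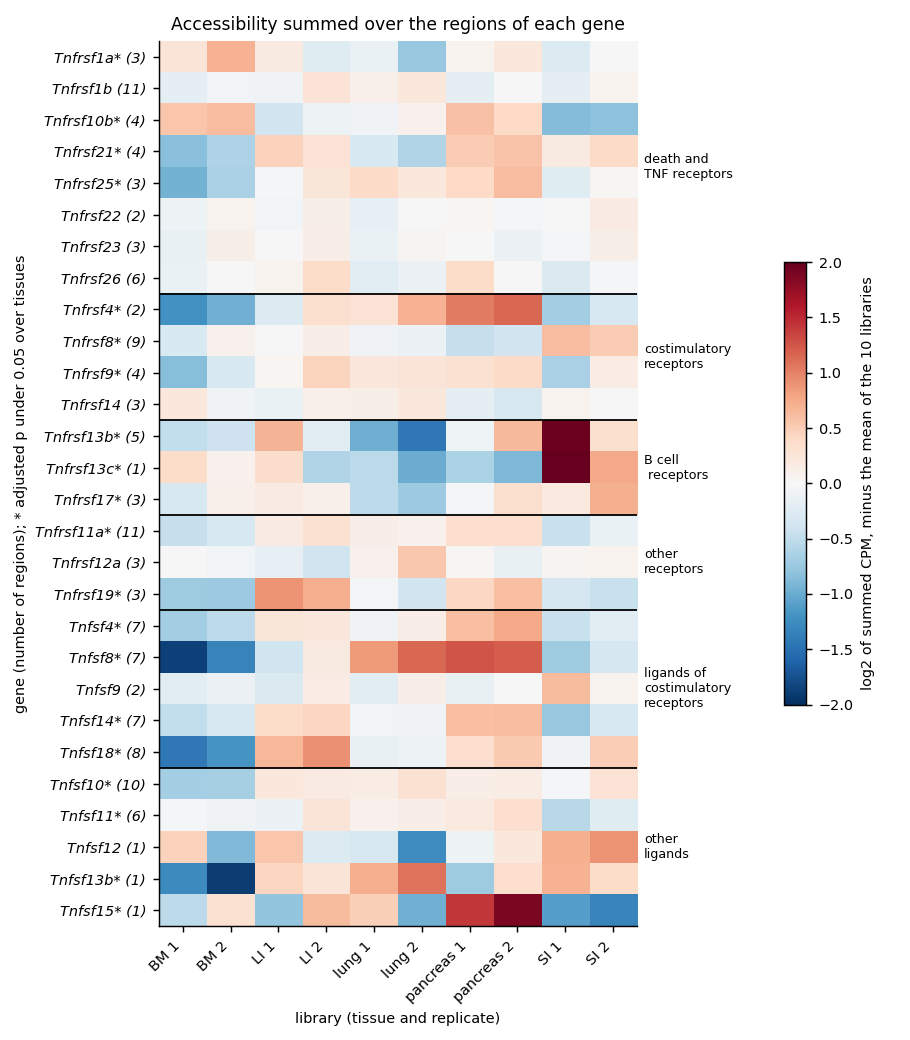
Log2 of the CPM summed over the regions of each of 28 genes, minus the mean of the 10 libraries, by role (rows) and library (columns), with colours capped at 2 in either direction. An asterisk marks an adjusted p under 0.05 over the tissues (20 genes) and the number of regions is in parentheses. *Tnfsf8* and *Tnfsf18* are lowest in both BM libraries, and *Tnfrsf13b* and *Tnfrsf13c* are highest in SI replicate 1.

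Promoters made up 19 of the 130 members (14.6%, against 19.3% of all regions), and 46.9% of the members were intergenic, against 32.6% of all regions. Of the 19 promoters 9 varied, against 30.9% of all promoters, 3 were lower in BM, against 1.67%, and 3 were higher in SI, against 1.15%. The promoters that did not vary included those of *Tnfrsf1a*, *Tnfrsf25*, *Tnfrsf11a*, *Tnfsf4*, and *Tnfsf10*, each of which had a varying region elsewhere.

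Other calls were few. Higher accessibility was called in 5 members in pancreas (1.43% of all regions), 4 in SI (2.80%), 2 in BM (4.50%), 1 in LI (1.30%), and 0 in lung (1.30%). Lower accessibility was called in 2 members in lung (1.72%), 3 in SI (3.59%), 0 in LI (0.132%), and 0 in pancreas (0.572%). No member was higher in both intestinal tissues than in BM, lung, and pancreas, against 2.18% of all regions, and 1 was lower in both, the *Tnfrsf10b* region over exon 7, against 0.874%. The 4 counts of 0 are at unadjusted p-values by edgeR, and DESeq2 on the 10 libraries gave 0 for each as well. Of these calls, 2 held in each of the 10 fits that left out a library, namely *Tnfsf4* at 19218 bp upstream in pancreas and *Tnfrsf10b* in intron 3 in SI. At adjusted p-values 1 member was lower in lung, against 0.374% of all regions, and none was higher in BM, LI, lung, or pancreas. Summed per gene and at unadjusted p-values, 6 of 28 genes were lower in BM, against 3.74% of all genes. They were *Tnfsf8*, *Tnfsf18*, *Tnfsf10*, *Tnfsf13b*, *Tnfrsf4*, and *Tnfrsf25*. For the *Tnfrsf4* sum, the contrast of BM to SI did not pass at adjusted p-values (adjusted p = 0.0956, edgeR).

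Genes of the same pathway under other names were taken from lists of the pathway by name, and the promoters given as examples were chosen after their values were seen. Among 14 family genes with other symbols, such as *Tnf*, *Fas*, *Cd27*, and *Cd40*, 26 of 52 regions varied, near the 44.2% of all regions, and 14 were lower in BM (6.63% of all regions), 8 of which were the *Fasl* regions described above. The *Tnf* promoter was lower in BM at unadjusted p-values (4.88 CPM against 7.25 to 13.6), and the *Cd40* promoter at adjusted ones (1.99 against 4.77 to 8.01, adjusted p of at most 0.0466). Among 14 genes of signalling adaptors, such as the TRAF proteins that the receptors recruit, 26 of 78 regions (33.3%) varied, below the 44.2% of all regions, 8 were lower in BM (10.3%, against 6.63%), and 2 were higher in BM (4.50% of all regions). The promoter of *Traf2*, which couples TNF receptors to NF-kB, was higher in BM (104 CPM) than elsewhere (58.0 to 69.0, adjusted p of at most 0.0246).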

How the data were processed

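ATAC-seq libraries of sorted ILC2s from 5 mouse tissues were compared through a table of whole-number read counts per region that the authors deposited. Per the labels and the methods of the study, reads were aligned to mm10 with Bowtie2 (2.2.9) and handled with SAMtools (1.8), FastQC (0.11.9), and MACS2 (2.1.1), peaks present in each replicate pair were combined across the tissues with HOMER, and uniquely mapped reads were counted per combined region. Removal of duplicate or mitochondrial reads and a shift for Tn5 were not given in the sources used here. Because the regions were called on these samples, a region open in 1 tissue alone entered the table through that tissue.

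Counts were analysed with edgeR (4.0.16, R 4.3.3), with TMM normalization, tissue as the factor, and all 10 libraries in 1 quasi-likelihood fit over 49981 regions with at least 1 count. A region varied when the test over the 5 tissues had a Benjamini-Hochberg adjusted p under 0.05. The most variable region of a gene was that with the smallest p in this test. It was called higher or lower in a tissue when each of the 4 contrasts had an unadjusted p under 0.05 and the same direction, as in the study, and the count with adjusted p-values is given beside it. Log2 differences carry the standard error of the fit. Regions were assigned to the nearest RefSeq TSS (GRCm38.p6), and a promoter spanned 1000 bp before to 100 bp after the TSS. Coordinates have the start and end as deposited, and whether the start counts from 0 or 1 was not given in the sources used here. Gene values are summed counts of the regions of a gene. Total counts were 10282987 to 32797872 per library. The fit was tested on simulated counts. Alternatives were other normalizations, DESeq2 (1.42.0), a filter of 10 counts in 2 libraries, removal of GC content and width trends, a replicate block, regions within 50 kb of the TSS, promoters alone, and leaving out each library. The regions named were the promoter region with the most counts of each gene, the most variable region of each gene with a varying region, and every region called in 1 tissue or higher in the intestine, with values per library for 12 main genes and for calls with adjusted p-values. Regions outside this rule are said to be so. Members and lists were chosen with earlier results of these data known.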

Additional observations from a re-analysis of the deposited data

How the results depend on the processing

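The count of members lower in BM (25) was 17 to 31 across the alternatives. With 1 library left out, it was 18 (without BM replicate 1) to 28 (without SI replicate 1). Of the 25, 12 were called in each of 8 other settings and in each of the 10 fits that left out a library. The limits to regions near the TSS and to promoters were not among these 8 settings. The count of varying members (72) was 64 to 81 and with 1 library left out 60 to 80, that of varying genes (20) was 16 to 21, and with promoter regions only 7 genes varied. With library size alone, 0 members were higher in BM, 1 in lung, 2 in pancreas, and 10 in SI, and 1 was lower in lung and 1 in SI. With GC content and width trends removed, 2 were higher in lung and 8 in SI, and 1 was lower in lung. With adjusted p-values, 0 were higher in BM, LI, or pancreas, 1 was higher in SI, and 1 each was lower in lung and SI. With DESeq2 on the 4 libraries of each contrast, 2 were higher in LI and 1 in lung, and 1 each was lower in lung and SI. With 1 library left out, the counts were 0 to 3 higher in BM, 0 to 5 in LI, 0 to 1 in lung, 1 to 6 in pancreas, 2 to 6 in SI, and 0 to 2 in both intestinal tissues, and 0 to 2 lower in lung and 1 to 6 in SI. The cause of these changes was not tested. With the replicate block, 73 members varied and 26 were lower in BM. Same-numbered libraries shared deviations of mixed sign (correlations of -0.22 to 0.20), and the main fit did not pair them. Mixed signs cannot decide whether libraries of some tissues were prepared together. Of 736 values of 46 named regions under the alternatives, 707 kept their direction and side of the threshold, 24 lost the call, 5 gained it, and 0 reversed. With 2 pools per tissue, regions of low CPM have wide errors, and the *Tnfsf8* region with 2 counts in BM replicate 1 has an uncertain fold.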
